A study of Mus musculus with 72 samples.

Results

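The 6 livers described here came from male mice under chronic circadian misalignment, 3 collected at a clock time of 16:00 and 3 at 04:00, 12 hours apart. They were chosen by the sex, treatment and clock time in the labels and are 6 of the 72 libraries of the study. All groups used here were wild-type C57bl6 mice aged 8 to 16 weeks, held on a light and dark cycle of 12:12 hours with food always available. All of them, controls included, were moved from chow to a high-fat diet (42% of its energy as fat) in the first week of the paradigm. Each group, namely misaligned males at 16:00 and 04:00, misaligned females at the same times and control males at the same times, held 3 livers. The labels name the treatment as misalignment or control only. They give neither the schedule nor the relation of the stated clock time to the light cycle of the misaligned mice on the day of collection, so times below are stated clock times. Libraries of a group are numbered as replicates. In the main fits, p-values rest on the spread between libraries within a group, pooled over all groups of the fit, other clock times included.

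The mammalian clock is a loop of transcription factors. ARNTL (also called BMAL1) pairs with CLOCK or NPAS2 and switches on the Per and Cry genes, whose proteins return to inhibit that pair. A second loop sets Arntl itself, with the nuclear receptors NR1D1 and NR1D2 repressing it and the ROR receptors activating it through a shared DNA element. In liver, the loop drives daily waves of genes for lipid, glucose, amino acid and drug metabolism, partly through the output factors DBP, TEF and HLF, which NFIL3 opposes on the D-box element. Arntl and Nr1d1 therefore reach their highest RNA levels at opposite times of day, and reading both places a liver in its cycle.

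Promoters of 3 core clock genes are printed because their RNA levels differed widely among the 6 livers and because each holds an element of one of these loops. The sequences are RefSeq windows from 250 bases before to 50 bases after an annotated start on GRCm38.p6, printed 5′ to 3′ on the strand of the gene, with the matched element in capitals. For Arntl the window is chr7:113207261-113207560 on the plus strand, for Nfil3 chr13:52980990-52981289 on the minus strand, and for Cry1 chr10:85185005-85185304 on the minus strand.
Arntl: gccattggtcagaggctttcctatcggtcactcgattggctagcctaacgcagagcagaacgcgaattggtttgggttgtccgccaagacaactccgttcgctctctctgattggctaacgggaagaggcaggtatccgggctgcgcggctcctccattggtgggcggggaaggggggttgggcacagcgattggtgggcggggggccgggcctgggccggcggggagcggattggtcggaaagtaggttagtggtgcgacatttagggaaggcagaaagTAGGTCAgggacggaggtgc
Nfil3: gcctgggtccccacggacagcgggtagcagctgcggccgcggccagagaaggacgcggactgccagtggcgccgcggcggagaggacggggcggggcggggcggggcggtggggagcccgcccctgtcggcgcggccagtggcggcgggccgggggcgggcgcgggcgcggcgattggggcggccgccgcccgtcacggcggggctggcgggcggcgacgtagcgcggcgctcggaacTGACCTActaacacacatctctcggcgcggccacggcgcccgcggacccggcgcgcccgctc
Cry1: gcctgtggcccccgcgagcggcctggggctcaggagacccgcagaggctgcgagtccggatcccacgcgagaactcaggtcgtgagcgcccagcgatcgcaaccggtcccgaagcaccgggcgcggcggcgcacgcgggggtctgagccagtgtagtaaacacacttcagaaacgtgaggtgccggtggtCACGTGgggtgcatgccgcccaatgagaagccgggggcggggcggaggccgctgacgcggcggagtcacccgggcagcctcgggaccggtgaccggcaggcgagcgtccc
In Arntl the capitals mark the ROR element TAGGTCA, 31 bases after the start. Arntl has a second RefSeq start, which is also the start of its GENCODE gene, and the window there (chr7:113207215-113207514) held none of the elements searched, so the match depends on the start chosen. In Nfil3 they mark the same element on the other strand (TGACCTA), whose first printed base lies 12 bases before the start. The GENCODE gene of Nfil3 starts further upstream and includes this element, so its position also depends on the start chosen. In Cry1 the capitals mark the E-box CACGTG, bound by the ARNTL pair, 60 bases before the start. Searched on both strands, TAGGTCA was in 2.61% of the 32851 promoter windows of the table, the E-box in 7.15%, and either D-box form (TTATGTAA or TTATGCAA) in 1.66%. Of the 16 core clock genes with a window, 5 held the E-box, 2 held TAGGTCA and 2 held a D-box. Counted by gene in the same way, the shares among all 27025 genes were 8.09%, 2.97% and 1.98%. These matches are letters in a window and were not tested as binding sites.

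The 6 libraries held 11741489 to 12295272 sense gene counts each, with 18363 to 18872 of the 27846 genes in the table detected. The nearly equal totals, 11551524 to 12529963 over all 72 libraries, carry little information on the original depth. Hepatocyte markers summed to 98390 to 105400 counts per 1000000 counts of a library (CPM) at 16:00 and 102500 to 128700 CPM at 04:00. Xist had 0 to 1 counts in the 6 libraries, and Eif2s3y, on the Y chromosome, had 581 to 811. One 04:00 liver, replicate 2, stood apart from its group in the core clock genes, so values without it are given beside the results that rest on it. Whether that library carries the right label cannot be told from these files, and every 04:00 value below is subject to that limit.

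The 3 livers taken at 16:00 were alike in the core clock genes, and the 3 taken at 04:00 were not. At 16:00 every liver had low Arntl, Cry1 and Nfil3 and high Nr1d1 and Dbp. At 04:00 replicates 1 and 3 had the opposite, while replicate 2 resembled the 16:00 livers. With this split, no gene passed an adjusted p of 0.05 between 16:00 and 04:00 (0%, or 0 of 14044 genes tested), although log2 differences of clock genes reached several units. In edgeR's quasi-likelihood test 539 genes (3.84%) had an unadjusted p under 0.05, and the smallest adjusted p was 0.757. limma-voom called 0 of the same genes (528 before adjustment) and DESeq2 called 2 (584 before adjustment). The same pair, 16:00 against 04:00, gave 140 calls among 14014 genes (0.999%) in misaligned females, 74 higher (0.528%) and 66 lower (0.471%) at 16:00. In control males it gave 162 calls among 14292 genes (1.13%), 94 higher (0.658%) and 68 lower (0.476%), each kind of mouse being fitted on its own 18 libraries. The 0 was not particular to this pair, since misaligned males at 12:00 against 00:00 and at 20:00 against 08:00 also gave 0 calls of 14044 genes in edgeR, and so did 16:00 against 04:00 in the same model without 04:00 replicate 2.

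**Figure D1:**
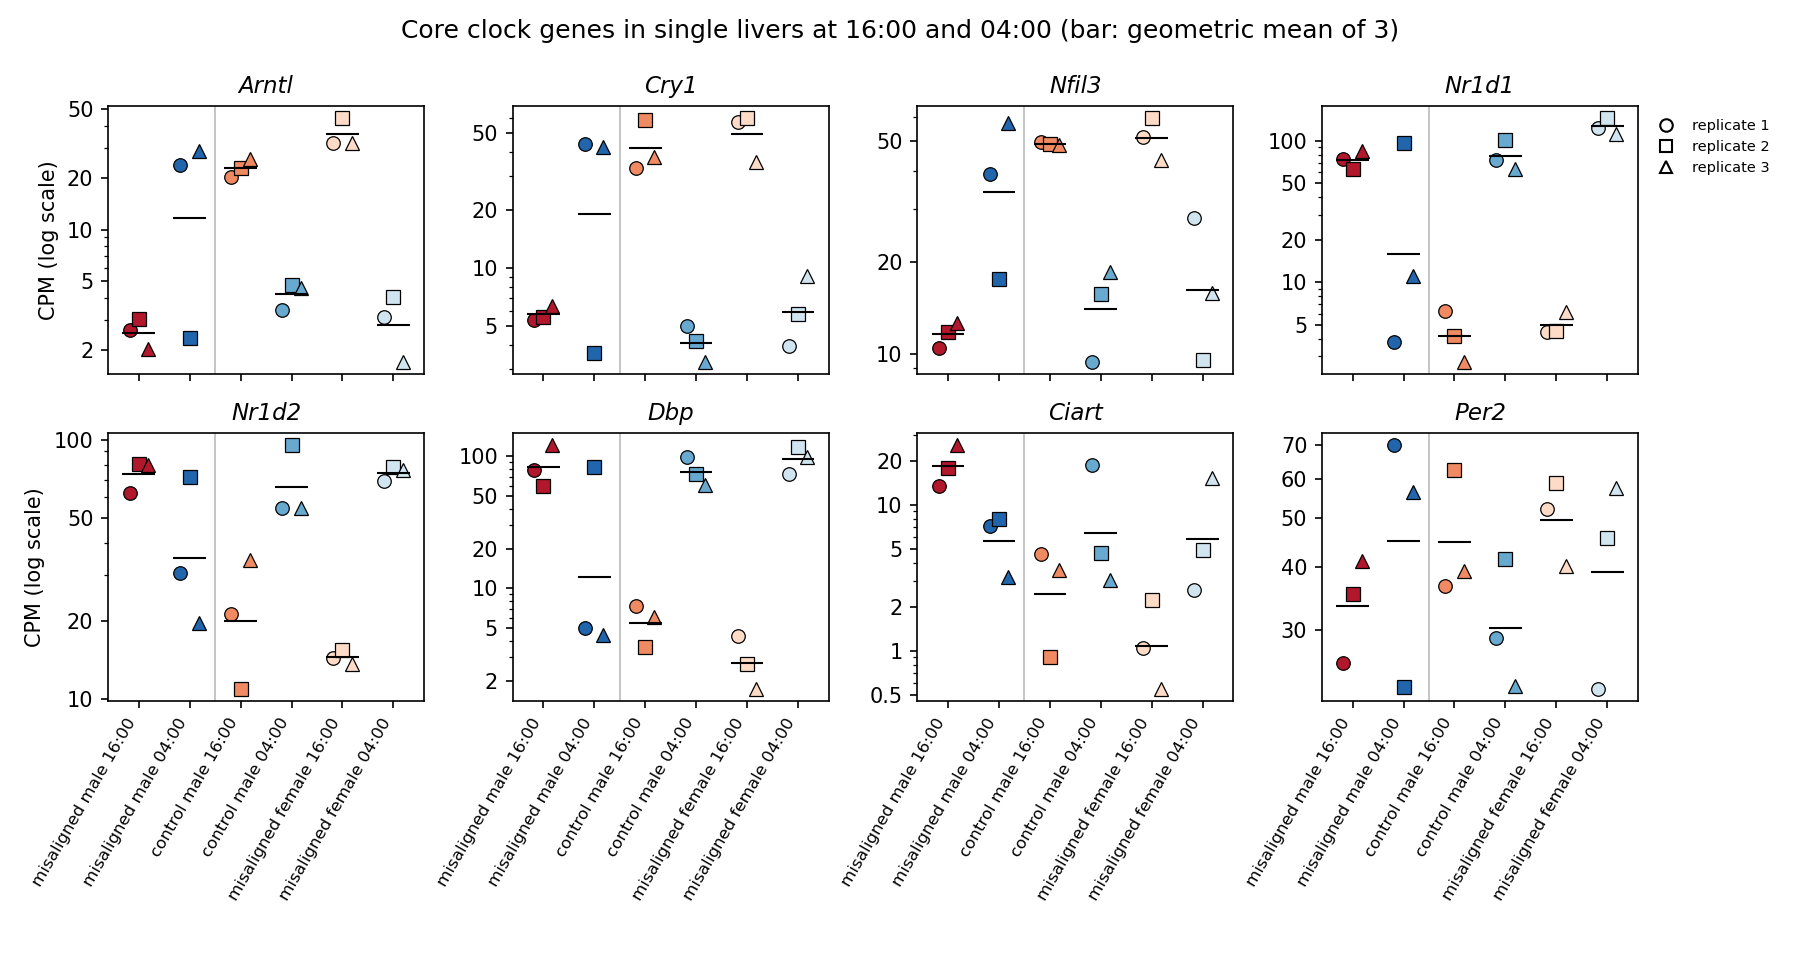
RNA level (CPM, logarithmic axis) of 8 core clock genes in single livers of misaligned males, control males and misaligned females, 16:00 left of 04:00 in each pair; symbols give the replicate number and bars the geometric mean of 3 livers. In misaligned males at 04:00 the square, replicate 2, lies apart from the other two livers in Arntl, Cry1, Nr1d1 and Dbp and beside the 16:00 livers.

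Among the activators of the loop, Arntl (ENSMUSG00000055116, chromosome 7, 113207465 to 113314126, plus strand, GENCODE on GRCm38) had 2.62, 3.01 and 2.01 CPM in the 16:00 livers, against 23.6, 2.35 and 28.5 CPM in the 04:00 livers. The 16:00 livers were all low, and of the 04:00 livers replicate 2 was as low as they were while replicates 1 and 3 lay far above. The fitted log2 difference, 16:00 minus 04:00, was -2.82 ± 1.06 (SE, n = 3 each), with an adjusted p of 0.983 in edgeR. The same adjusted p belonged to every other core clock gene below except Cry2, where it was 0.99 in edgeR. In bulk tissue, fewer cells that express a gene and less RNA per cell cannot be told apart, here and for every gene below. Clock, the partner of Arntl, had 21.3, 24.5 and 18.4 CPM in the 16:00 livers, against 34.9, 22 and 35.3 CPM in the 04:00 livers, a difference of -0.52 ± 0.21. Npas2, which can stand in for Clock, was scarce, with 0.16, 0.85 and 0.17 CPM in the 16:00 livers, against 1.4, 0.57 and 11.2 CPM in the 04:00 livers. Here 04:00 replicate 3 alone was high, and replicate 1 lay between it and the rest.

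The repressors included genes of both kinds, low at 16:00 and high at 16:00. Cry1 (ENSMUSG00000020038, chromosome 10, 85131700 to 85185064, minus strand), which inhibits the ARNTL pair, had 5.39, 5.55 and 6.38 CPM in the 16:00 livers, against 44.2, 3.64 and 42.7 CPM in the 04:00 livers. Like Arntl it was high in 04:00 replicates 1 and 3 alone, and its difference was -2.39 ± 0.77. Cry2 had 31.9, 37.7 and 54.9 CPM in the 16:00 livers, against 47.8, 36.1 and 43.8 CPM in the 04:00 livers, and its groups overlapped with a difference of -0.04 ± 0.18. Nr1d1 (ENSMUSG00000020889, chromosome 11, 98767932 to 98775333, minus strand), the repressor of Arntl, had 74.7, 63.6 and 84.3 CPM in the 16:00 livers, against 3.77, 97.1 and 11 CPM in the 04:00 livers. It was the mirror image, high in the 16:00 livers and in 04:00 replicate 2 and low in both other 04:00 livers, and its difference of 0.98 ± 1.05 was smaller than its standard error. Nr1d2, its close relative, had 62.5, 80.6 and 79.8 CPM in the 16:00 livers, against 30.5, 71.4 and 19.6 CPM in the 04:00 livers, and was again low in 04:00 replicates 1 and 3 alone. The period genes were less divided. Per1 had 50.2, 47.9 and 59.2 CPM in the 16:00 livers, against 27.3, 36.7 and 69.2 CPM in the 04:00 livers, and 04:00 replicate 3 was the highest of all 6. Per2 had 25.7, 35.3 and 41.1 CPM in the 16:00 livers, against 70.1, 23.1 and 56.5 CPM in the 04:00 livers, with 04:00 replicate 2 the lowest of the 6, and Per3 had 20, 26.2 and 44.9 CPM in the 16:00 livers, against 21.1, 28.4 and 7.67 CPM in the 04:00 livers. Bhlhe40 and Bhlhe41 (also called DEC1 and DEC2), repressors that compete for E-boxes, differed from each other. Bhlhe40 had 164, 159 and 187 CPM in the 16:00 livers, against 270.4, 159 and 145 CPM in the 04:00 livers, with 04:00 replicate 1 the highest of the 6. Bhlhe41 had 3.49, 1.54 and 7.26 CPM in the 16:00 livers, against 0.70, 4.21 and 0.26 CPM in the 04:00 livers, low in 04:00 replicates 1 and 3. Ciart, a repressor of the ARNTL pair, had 13.3, 17.9 and 25.6 CPM in the 16:00 livers, against 7.11, 7.94 and 3.17 CPM in the 04:00 livers. It was the single core clock gene of 19 whose 16:00 livers all lay above the 04:00 livers, against 3.34% of all genes tested, with a difference of 1.63 ± 0.75.

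Rora, one of the ROR receptors that activate Arntl, had 32.9, 48.3 and 38.6 CPM in the 16:00 livers, against 74, 42.4 and 45 CPM in the 04:00 livers, and 04:00 replicate 1 alone was outside the 16:00 range. Among the output factors, Dbp (ENSMUSG00000059824, chromosome 7, 45705088 to 45710203, plus strand) had 78.8, 59.9 and 122 CPM in the 16:00 livers, against 5, 82.4 and 4.41 CPM in the 04:00 livers. The 16:00 livers and 04:00 replicate 2 were high and the other pair low, with a difference of 1.5 ± 1.26. Tef had 131, 153 and 235 CPM in the 16:00 livers, against 145, 153 and 99.4 CPM in the 04:00 livers, and Hlf had 46, 53.7 and 56.3 CPM in the 16:00 livers, against 66.5, 51 and 49.1 CPM in the 04:00 livers, both with overlapping groups. Nfil3 (ENSMUSG00000056749, chromosome 13, 52967209 to 52981073, minus strand), which represses the genes that DBP activates, had 10.5, 11.8 and 12.7 CPM in the 16:00 livers, against 39, 17.6 and 57.4 CPM in the 04:00 livers. It was the single core clock gene with every 16:00 liver below every 04:00 liver, against 2.73% of all genes tested, with a difference of -1.71 ± 0.51.

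Over the 19 core clock genes, 11 differences were negative and 8 positive, with a median of -0.10, beside -0.0045 over all genes tested. Of the 19, 7 had an unadjusted p under 0.05 in edgeR, beside 3.84% of all genes tested. Over all genes tested, 50.7% of differences were negative and 49.3% positive. The spread within a group showed the division of the 04:00 livers directly. The median standard deviation of log2 CPM was 0.277 at 16:00 and 0.866 at 04:00 for the core clock genes, and the 04:00 value was the larger in 17 of 19. A wide spread was not limited to 04:00, the median being 0.63, 0.328, 0.685 and 0.828 in the misaligned males of 00:00, 08:00, 12:00 and 20:00. Over all genes tested the 04:00 value was the larger in 46%. In 10 of the 19 genes (52.6%), 04:00 replicate 2 did not share the side of its group, in that both other 04:00 livers lay beyond all 16:00 livers on one side and it did not. The same count was 1 for replicate 1 and 1 for replicate 3. Among all genes tested the shares were 5.37% for replicate 1, 15.8% for replicate 2 and 5.3% for replicate 3.

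A molecular clock time was read for each liver from 14 core clock genes that were rhythmic in control males, by fitting their levels to the control curves over 24 hours. The 16:00 livers read 6.03, 6 and 7.31 hours. The 04:00 livers read 14.85, 5.07 and 17.61 hours, so replicate 2 lay with the 16:00 livers and the other pair near the opposite side of the day. Concentration, which is 1 when livers share one time and 0 when they cancel, was 0.987 at 16:00 and 0.307 at 04:00. In the misaligned males of 00:00, 08:00, 12:00 and 20:00 it was 0.433, 0.988, 0.635 and 0.667. In control males, whose own curves were the scale, the 16:00 livers read 15.85, 17.27 and 15.37 hours and the 04:00 livers 6.11, 4.87 and 4.35 hours. The control livers of 08:00 read 7.49, 9.63 and 8.6 hours. Misaligned 16:00 replicates 1 and 2 thus read close to the control livers of 04:00. Misaligned 16:00 replicate 3 read between the control livers of 04:00 and those of 08:00. Misaligned 04:00 replicate 1 read slightly earlier than the control livers of 16:00. Misaligned 04:00 replicate 3 read between the control livers of 16:00 and those of 20:00, which read 18.34, 18.09 and 20.21 hours. The amplitude relative to the control curve was 0.948, 0.78 and 1.031 in the 16:00 livers and 1.396, 1.088 and 0.77 in the 04:00 livers. These readings describe single livers and were not tested.

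**Figure D2:**
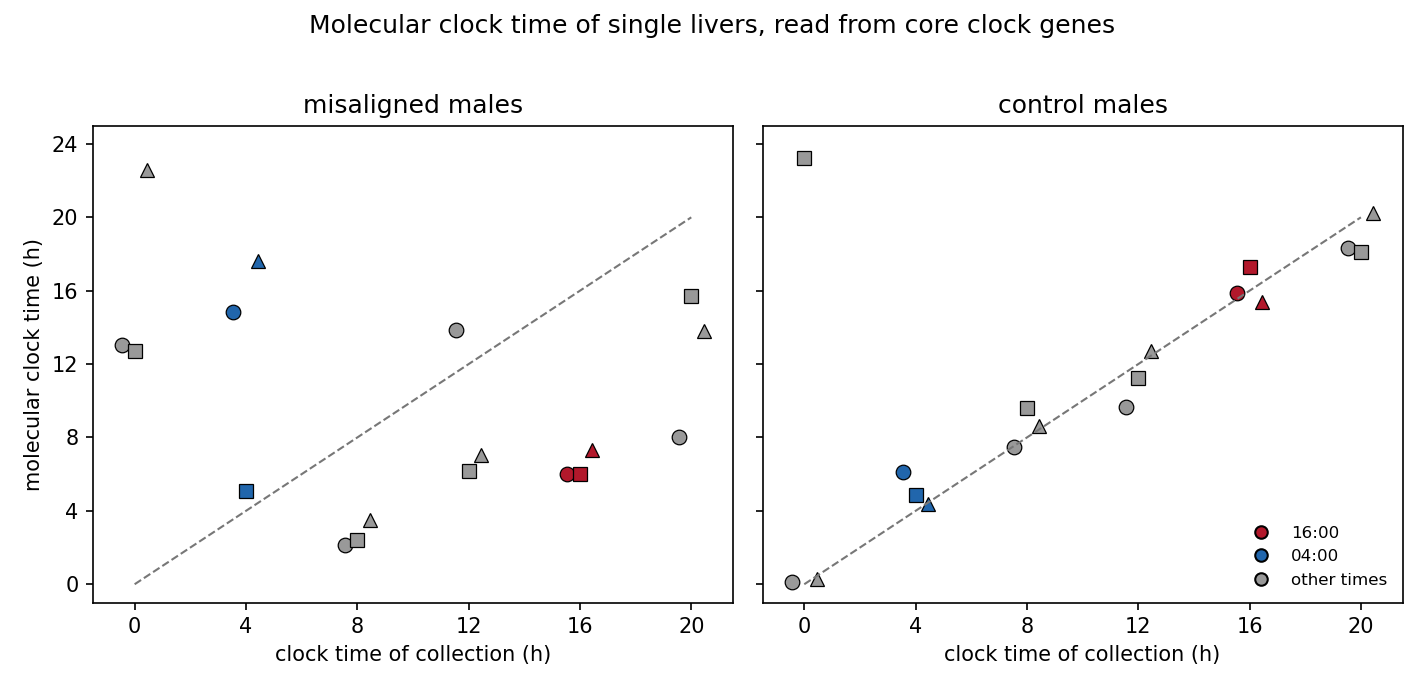
Molecular clock time (hours, circular, from 14 core clock genes) against the stated clock time for single male livers, misaligned (left panel) and control (right panel, read against their own curves). Symbols give the replicate number, and the dashed line marks equal times. The misaligned 16:00 livers read 6.03, 6 and 7.31 hours, and the misaligned 04:00 livers 14.85, 5.07 and 17.61 hours.

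Some of the genes driven by the clock repeated the split. None of the 23 listed clock outputs was called in edgeR, and 5 had an unadjusted p under 0.05, beside 3.84% of all genes tested. Of the 23 differences, 13 were negative and 10 positive. In 10 of the 23 (43.5%), replicate 2 was the 04:00 liver off its group's side, and in 0 of the 23 replicate 1 or 3. Over all genes tested the share for replicate 2 was 15.8%. Ppard, a nuclear receptor for fatty acids, had 7.45, 4.78 and 6.47 CPM in the 16:00 livers, against 21.7, 5.59 and 26.1 CPM in the 04:00 livers, a difference of -1.51 ± 0.56. Lonrf3, a ring finger protein, had 0.48, 0.77 and 0.26 CPM in the 16:00 livers, against 2.81, 0.32 and 2.65 CPM in the 04:00 livers, a difference of -1.89 ± 0.75. Avpr1a, the vasopressin receptor of liver, had 3.65, 3.01 and 4.81 CPM in the 16:00 livers, against 12.8, 3.81 and 7.32 CPM in the 04:00 livers, a difference of -1.06 ± 0.38. In the first pair replicates 1 and 3 alone were high, and in Avpr1a replicate 2 lay within the 16:00 range. Coq10b, which binds coenzyme Q, and Wee1, a kinase that holds back mitosis, lay the other way with no overlap, narrowly in Wee1. They were named for that and not by the smallest p. Of the 23 outputs, 2 were higher without overlap, beside 3.34% of all genes tested. Coq10b had 45.4, 58.6 and 60.1 CPM in the 16:00 livers, against 29.2, 41.9 and 24.2 CPM in the 04:00 livers, and Wee1 had 17.8, 19.9 and 21.7 CPM in the 16:00 livers, against 17.2, 15.1 and 10.8 CPM in the 04:00 livers. Chka, choline kinase at the head of phosphatidylcholine synthesis, had 36.7, 45.3 and 21.2 CPM in the 16:00 livers, against 144, 33.5 and 177 CPM in the 04:00 livers, a difference of -1.78 ± 0.78. It too was high in 04:00 replicates 1 and 3 only, whereas Lpcat3 and Cept1 of the same pathway differed little, by 0.33 ± 0.14 and -0.28 ± 0.13.

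**Figure D3:**
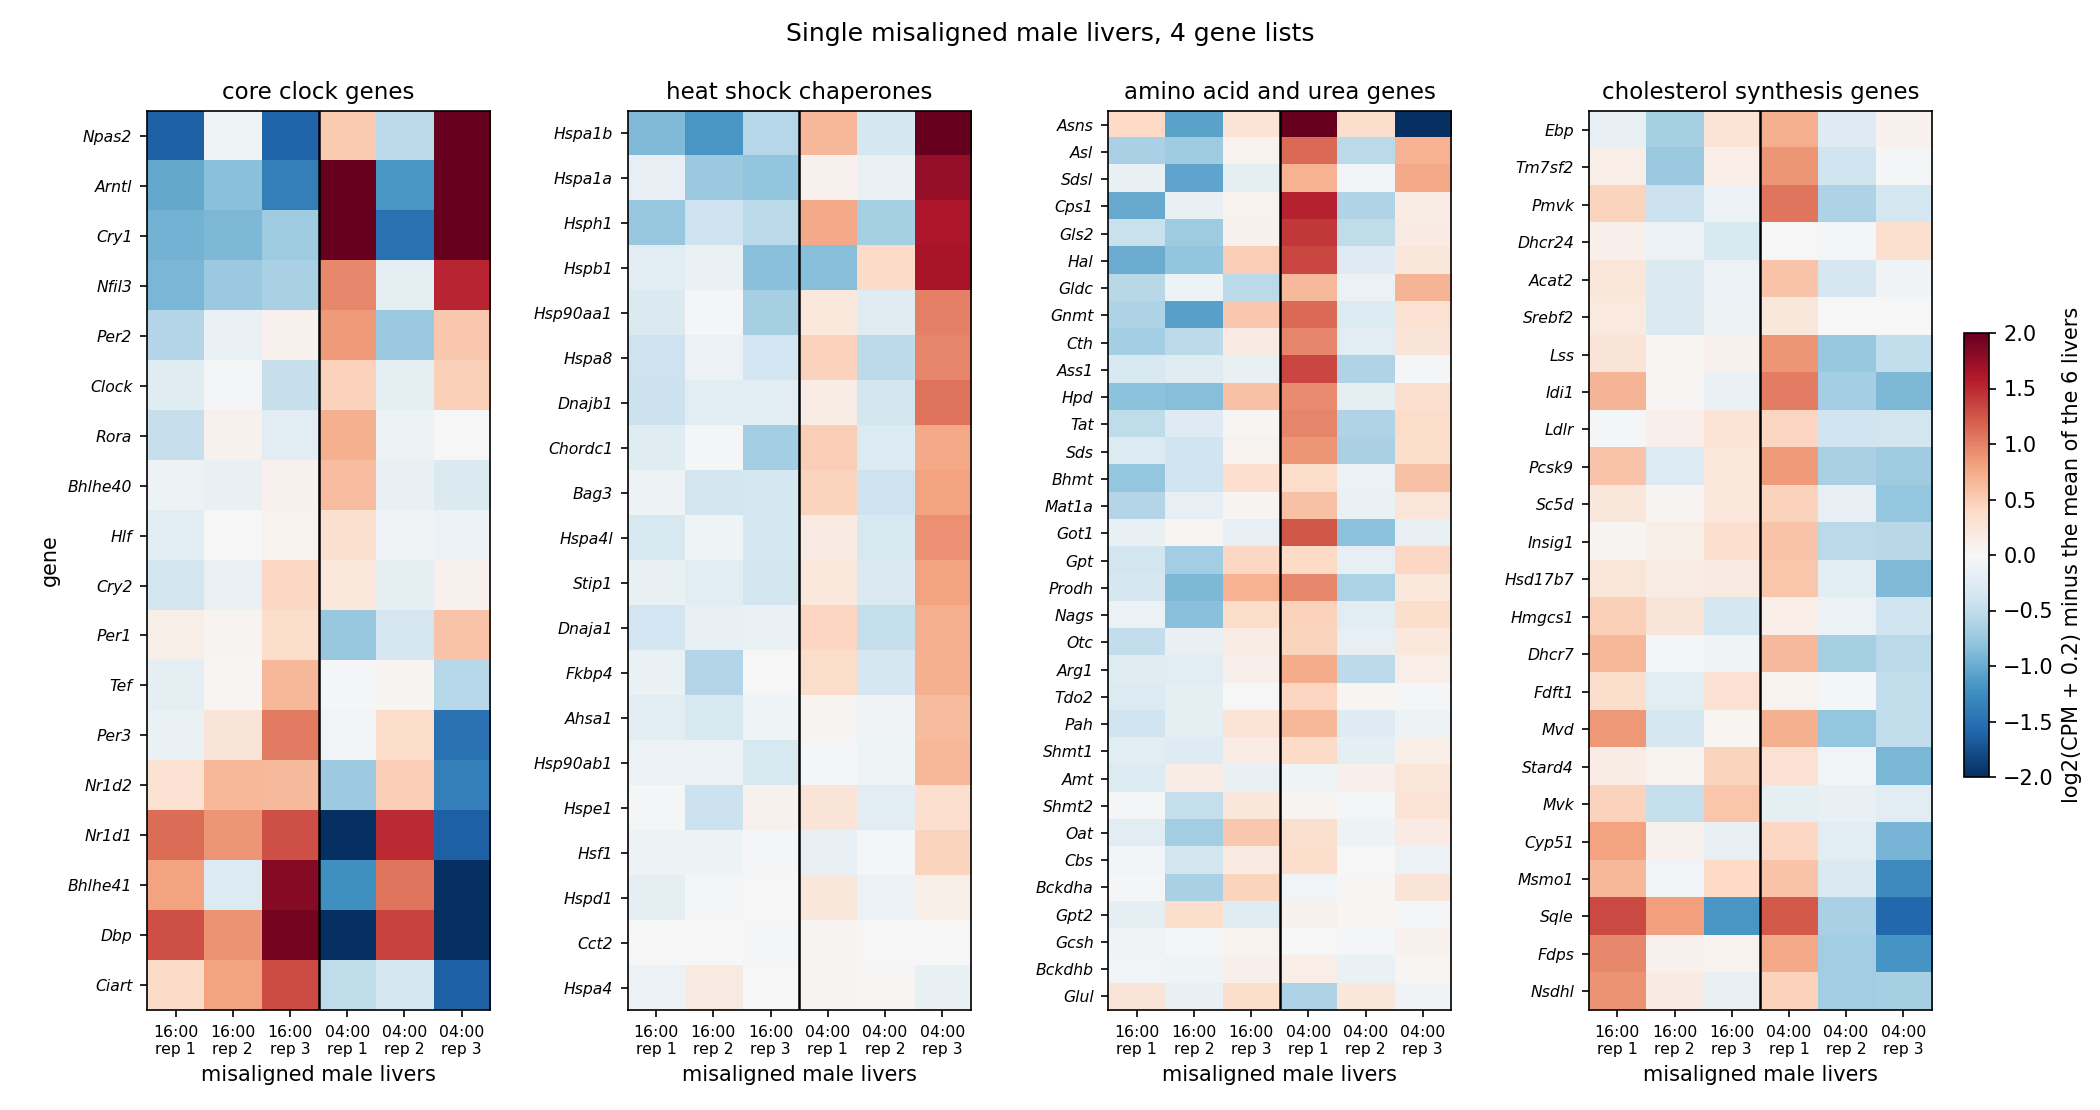
Level of each gene in single misaligned male livers, as log2(CPM + 0.2) minus the mean of the 6 livers, for core clock, heat shock, amino acid and cholesterol synthesis genes, with the 16:00 livers left of the line. In the first 3 panels 04:00 replicate 2 mostly has the colours of the 16:00 livers, and in the cholesterol panel replicates 2 and 3 share the low colours.

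Heat shock chaperones were mostly lower at 16:00. Of 20 tested, 19 differences were negative with a median of -0.58. An unadjusted p under 0.05 in edgeR was found for 5 of the 20, beside 3.84% of all genes tested. In 4, every 16:00 liver lay below every 04:00 liver (2.73% of all genes tested did). The summed level of the list was 3596, 3913 and 3563 CPM in the 16:00 livers, against 5149, 3544 and 7184 CPM in the 04:00 livers. Replicate 3 was the highest, replicate 1 intermediate, and replicate 2 at the 16:00 level. In control males the same sum was 5386, 4735 and 6424 CPM at 16:00 and 3023, 4209 and 3607 CPM at 04:00. Hsp90aa1, the inducible cytosolic HSP90, had 163, 193 and 126 CPM in the 16:00 livers, against 229, 169 and 402 CPM in the 04:00 livers, a difference of -0.74 ± 0.31. Chordc1, an HSP90 partner, had 33, 38 and 24.3 CPM in the 16:00 livers, against 55, 32.5 and 66.2 CPM in the 04:00 livers, a difference of -0.69 ± 0.29. Hspa4l, of the HSP110 family, had 20, 23.5 and 19.6 CPM in the 16:00 livers, against 28.1, 20 and 47.3 CPM in the 04:00 livers, a difference of -0.60 ± 0.24. In all 3, replicates 1 and 3 of 04:00 lay above the 16:00 livers and replicate 2 among them. Hspa8, the constitutive HSP70, and Hsph1, a nucleotide exchange factor for it, were picked after their values were seen. Hspa8 had 1065, 1307 and 1081 CPM in the 16:00 livers, against 1951, 983 and 2779 CPM in the 04:00 livers. Hsph1 had 32.6, 41.5 and 38 CPM in the 16:00 livers, against 93.6, 34.7 and 169 CPM in the 04:00 livers, the widest range of these chaperones. Leaving out any 1 of the 6 livers moved the list median between -0.81 and -0.25 and left 19 or 20 of its differences negative. Within-group standard deviations of log2 CPM had a median of 0.147 at 16:00 and 0.587 at 04:00.

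Genes of amino acid breakdown and the urea cycle were also mostly lower at 16:00. Of their 33 differences 32 were negative, with a median of -0.38. An unadjusted p under 0.05 in edgeR was found for 8 of the 33, beside 3.84% of all genes tested. Gldc, of glycine cleavage, had 108, 148 and 109 CPM in the 16:00 livers, against 251, 147 and 255 CPM in the 04:00 livers, a difference of -0.84 ± 0.31. Gls2, liver glutaminase, had 135, 112 and 196 CPM in the 16:00 livers, against 489.8, 129 and 205 CPM in the 04:00 livers, a difference of -0.89 ± 0.35. Sdsl, a serine dehydratase relative, had 3.81, 1.93 and 3.67 CPM in the 16:00 livers, against 7.02, 4.05 and 7.32 CPM in the 04:00 livers. It was the only 1 of the 33 without overlap, close to the share of all genes tested that were lower without overlap (2.73%). Cps1, which starts the urea cycle, had 772, 1394 and 1628 CPM in the 16:00 livers, against 4482, 1014 and 1718 CPM in the 04:00 livers. Replicate 1 of 04:00 stood far above the rest in Gls2 and Cps1, and replicate 2 lay among the 16:00 livers in Gldc, Gls2 and Cps1. In 12 of the 33 (36.4%), replicate 2 was the 04:00 liver off its group's side, beside 15.8% of all genes tested. The median ran from -0.66 to -0.16 when single livers were left out, with 25 to 32 negative differences.

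Lipid synthesis divided the 04:00 livers differently. In 15 of 25 cholesterol synthesis genes (60%), 04:00 replicates 2 and 3 lay below all 16:00 livers and replicate 1 did not, and in 0 of the 25 was replicate 2 or replicate 3 the one set apart. In fatty acid synthesis genes the count was 9 of 20 for replicate 1 (45%), with 2 for replicate 2 and 0 for replicate 3. Over all genes tested the share for replicate 1 was 5.37%. Insig1, which retains the SREBP precursors, had 236, 245 and 286 CPM in the 16:00 livers, against 337, 156 and 155 CPM in the 04:00 livers. It was picked after its values were seen, and 04:00 replicate 1 was the highest of the 6 and replicates 2 and 3 the lowest. By the rule on the smallest p, Nsdhl had 72.7, 43.5 and 35.1 CPM in the 16:00 livers, against 53.5, 24.1 and 24.5 CPM in the 04:00 livers, Mvk had 10.1, 5.16 and 10.8 CPM in the 16:00 livers, against 6.41, 6.56 and 6.17 CPM in the 04:00 livers and Fdft1 had 94.6, 63.8 and 91.1 CPM in the 16:00 livers, against 77.6, 72.3 and 52.1 CPM in the 04:00 livers, all 3 with an unadjusted p above 0.05 and overlapping groups. The cholesterol list gave 18 positive and 7 negative differences with a median of 0.24, which ran from 0.03 to 0.70 without single livers. For fatty acid synthesis the median was -0.06 and ran from -0.36 to 0.43, so its sign depended on the liver left out. Mlxipl, the glucose-sensing factor ChREBP, had the smallest p of that list, with 196, 193 and 318 CPM in the 16:00 livers, against 396, 242 and 408 CPM in the 04:00 livers.

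Targets of PPAR alpha, the fasting receptor of liver, gave 18 negative and 10 positive differences of 28, with a median of -0.09. In 3 of them every 16:00 liver was below every 04:00 liver, against 2.73% of all genes tested. Cyp4a14, a fatty acid hydroxylase, had 149, 358 and 179 CPM in the 16:00 livers, against 373, 581 and 1014 CPM in the 04:00 livers, a difference of -1.53 ± 0.56. Ehhadh, of peroxisomal beta-oxidation, had 432, 568 and 568 CPM in the 16:00 livers, against 729.5, 595 and 915 CPM in the 04:00 livers, a difference of -0.52 ± 0.19. Cyp4a10, next to Cyp4a14 in its gene family and open to shared reads, had 208, 399 and 433 CPM in the 16:00 livers, against 382, 624 and 1185 CPM in the 04:00 livers. Among glycogen regulators, Ppp1r3c, which targets protein phosphatase to glycogen, had 18.1, 24.3 and 43.6 CPM in the 16:00 livers, against 148, 48.5 and 103 CPM in the 04:00 livers, with no overlap and a difference of -1.80 ± 0.53. Its relative Ppp1r3b had 139.7, 199 and 226 CPM in the 16:00 livers, against 887, 128 and 389 CPM in the 04:00 livers, where only replicate 2 of 04:00 lay below the 16:00 livers. G6pc, which releases glucose, had 401, 290.3 and 411 CPM in the 16:00 livers, against 817, 516 and 544 CPM in the 04:00 livers, and Pklr, liver pyruvate kinase, had 743, 668 and 596 CPM in the 16:00 livers, against 586, 411 and 479 CPM in the 04:00 livers. G6pc was lower and Pklr higher in every 16:00 liver. Over the 20 genes of glucose and glycogen metabolism, 10 differences were positive and 10 negative. Among other lists, the median was -0.21 for glucocorticoid targets (12 of 18 negative), -0.11 for bile acid genes (15 of 20 negative), 0.02 for the unfolded protein response (16 of 30 positive) and 0.07 for autophagy (12 of 16 positive).

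Among drug metabolism genes, 17 of 22 differences were negative, with a median of -0.27. Cyp3a13 had 95, 119 and 143 CPM in the 16:00 livers, against 229.5, 137 and 193 CPM in the 04:00 livers, a difference of -0.65 ± 0.21. Cyp2b10, a target of the receptor CAR, had 0.63, 1.46 and 0.44 CPM in the 16:00 livers, against 4.21, 2.02 and 25.5 CPM in the 04:00 livers, with no overlap, a difference of -3.62 ± 1.40, and 04:00 replicate 3 far above the others. Cell division genes lay the other way, with 24 of 27 differences positive and a median of 0.57, beside 49.3% positive over all genes tested. Only 1 of the 27 had an unadjusted p under 0.05 in edgeR, near the 3.84% of all genes tested. The summed level of the cell division list was 360.2, 417 and 167 CPM in the 16:00 livers, against 226, 233 and 371 CPM in the 04:00 livers, so replicate 3 was the lowest at 16:00 and the highest at 04:00. Cdt1, which licenses replication origins, had 5.79, 4.62 and 2.45 CPM in the 16:00 livers, against 1.32, 3.08 and 2.03 CPM in the 04:00 livers. Mcm2, of the replicative helicase, had 17.1, 17.2 and 7.08 CPM in the 16:00 livers, against 2.37, 9.96 and 7.76 CPM in the 04:00 livers, and Ccnb2, a mitotic cyclin, had 6.42, 6.01 and 0.61 CPM in the 16:00 livers, against 0.97, 2.35 and 1.76 CPM in the 04:00 livers. In all 3, the 16:00 replicates 1 and 2 were the highest livers.

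Markers of cholangiocytes, the bile duct cells, were highest in 16:00 replicates 1 and 2 and low in 16:00 replicate 3. Their sum was 369, 577 and 83.2 CPM in the 16:00 livers, against 52.2, 232 and 139 CPM in the 04:00 livers, 6 of 7 differences being positive with a median of 1.03 and none of the 7 at 0. The summed cell division level given above had another order, with 04:00 replicate 3 above 16:00 replicate 1. Whether bile duct content had a part in the cell division levels was not tested. Endothelial markers were lower at 16:00 in 10 of 10, with a median of -0.21 and sums of 387, 342 and 390.3 CPM in the 16:00 livers, against 469, 399 and 408 CPM in the 04:00 livers. Tek, an endothelial receptor, had 8.25, 8.48 and 10.2 CPM in the 16:00 livers, against 15.9, 10.9 and 12.3 CPM in the 04:00 livers, and Pecam1 had 22.3, 22.8 and 23.1 CPM in the 16:00 livers, against 29, 28.3 and 24.2 CPM in the 04:00 livers, both without overlap. Kupffer cell and macrophage markers summed to 702 to 1026 CPM at 16:00 and 788 to 1101 CPM at 04:00, stellate markers to 502 to 1116 and 505 to 798 CPM, and blood markers to 137 to 548 and 238 to 463 CPM. Lymphocyte and neutrophil markers summed to 8.83 to 12.8 CPM at 16:00 and 7.85 to 10.6 CPM at 04:00. Of the pancreas and adipose list 2 of 8 genes were at 0 in all 16:00 livers and 3 in all 04:00 livers, and the rest summed to 16.6 to 109 CPM and 21.1 to 58.7 CPM. Hepatocyte markers, whose sums are given above, had 10 of 11 differences negative, with a median of -0.19. The part of other cell types in the differences above was not tested.

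**Figure D4:**
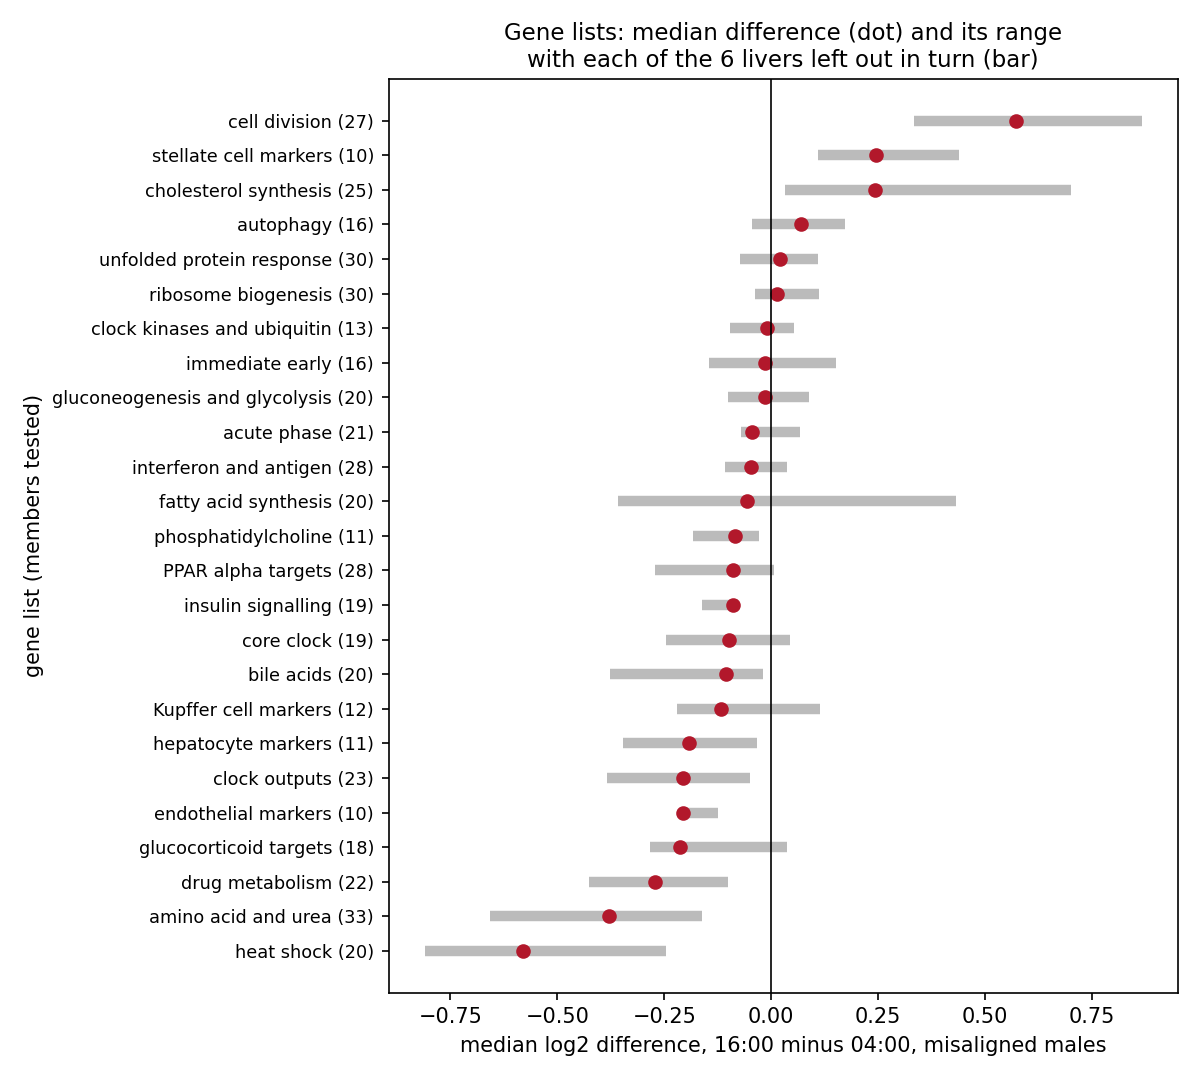
Median log2 difference, 16:00 minus 04:00 in misaligned males, over the tested genes of each list with at least 10 of them, with the range of that median when 1 of the 6 livers is left out. Heat shock genes (-0.58) and amino acid genes (-0.38) lie below 0 over their whole range. So do clock outputs, insulin signalling, drug metabolism, bile acid and phosphatidylcholine genes, and hepatocyte and endothelial markers. Cell division genes (0.57), cholesterol synthesis genes and stellate markers lie above 0, and fatty acid synthesis spans it.

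Without 04:00 replicate 2, an alternative chosen after the data were seen, calls depended on the model. That liver was singled out by its core clock genes. Calls and p-values of those genes without it follow from that choice and are not separate support. The fit of the 18 libraries less that liver still called 0 (1265 before adjustment). A fit over all 72 libraries less that liver called 73 genes, 21 higher and 52 lower at 16:00, 8 of them core clock genes. There Arntl differed by -3.35 (adjusted p = 0.00569 in edgeR) and Cry1 by -2.92 (adjusted p = 0.000613 in edgeR). Dbp differed by 4.20 in that fit (adjusted p = 0.0127 in edgeR). With the compared libraries alone 12 genes were called, 5 of them core clock genes, and DESeq2 called 73, while limma-voom called 0. With all 6 livers, DESeq2 called 2 genes, both outside the naming rule and chosen after their values were seen. Prlr, the prolactin receptor, had 24.5, 42.6 and 38.5 CPM in the 16:00 livers, against 82.3, 59.1 and 86.7 CPM in the 04:00 livers, with no overlap and a DESeq2 adjusted p of 0.0187. Slc22a26, an organic anion transporter of a family whose members may share reads, had 0.24, 0.62 and 0.35 CPM in the 16:00 livers, against 4.13, 1.13 and 3.35 CPM in the 04:00 livers, with no overlap and a DESeq2 adjusted p of 0.0477. Over all genes tested, 852 (6.07%) had groups without overlap, 469 higher and 383 lower at 16:00.

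Set against control males, the 16:00 to 04:00 difference of some core clock genes had the opposite sign in misaligned males. Cry1, Arntl, Nfil3 and Clock were lower at 16:00 than at 04:00 in misaligned males, taken as group means, and higher in control males, and Nr1d1 was the reverse. The difference of the 2 differences was tested itself, on the 36 male libraries, and 92 of 14609 genes passed (0.63%), 23 positive (0.157%) and 69 negative (0.472%), including 6 of the 19 core clock genes. Over all 19 the median difference of differences was -0.052. This comparison and the one above share the 6 misaligned livers.

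Arntl in control males had 20.2, 22.8 and 25.8 CPM at 16:00 and 3.43, 4.77 and 4.6 CPM at 04:00, high at 16:00 and low at 04:00 in all livers. Its difference of differences, misaligned minus control, was -5.25 ± 1.09 with an edgeR adjusted p of 0.024. Cry1 in control males had 33.1, 58.8 and 37.7 CPM at 16:00 and 5.03, 4.17 and 3.28 CPM at 04:00, a difference of differences of -5.75 ± 0.87 with an edgeR adjusted p of 0.00645. In both genes the control groups did not overlap, and misaligned 04:00 replicate 2 alone lay near the control livers of its own clock time. Nfil3 had 49.5, 49 and 48.6 CPM at 16:00 and 9.45, 15.8 and 18.6 CPM at 04:00 in controls, giving -3.46 ± 0.63 with an edgeR adjusted p of 0.0118. Nr1d1 had 6.32, 4.16 and 2.76 CPM at 16:00 and 73.5, 101 and 63.6 CPM at 04:00 in controls and a difference of differences of 5.13 ± 1.19, with an edgeR adjusted p of 0.04. Dbp had 7.3, 3.62 and 6.11 CPM at 16:00 and 98.3, 73 and 60.2 CPM at 04:00 in controls, as wide a swing, but its 5.25 ± 1.38 did not pass (adjusted p = 0.0718 in edgeR). Clock passed with -1.12 ± 0.27 (adjusted p = 0.0486 in edgeR).

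Beyond the clock, the genes with the smallest p included Ces1d, Pxmp4, Caln1 and Wrnip1. Ces1d, a carboxylesterase that hydrolyses lipids and belongs to a cluster of near copies, had 708, 619 and 1091 CPM in the 16:00 livers, against 2020.2, 761 and 1829.7 CPM in the 04:00 livers. In control males it had 2013, 1602 and 2675 CPM at 16:00 and 566, 548 and 810.0 CPM at 04:00, and the difference of differences was -2.64 ± 0.44 with an edgeR adjusted p of 0.00713. Its control levels at 16:00 were all above those at 04:00, and the misaligned levels were the other way round except in replicate 2. Pxmp4, a peroxisomal membrane protein, had 75.5, 61.2 and 72.4 CPM in the 16:00 livers, against 98.4, 67.9 and 144 CPM in the 04:00 livers in misaligned males and 127, 162 and 149 CPM at 16:00 and 64.3, 64.5 and 70.4 CPM at 04:00 in control males. Caln1, a calcium-binding protein, had 4.04, 3.16 and 4.37 CPM in the 16:00 livers, against 11, 5.51 and 9 CPM in the 04:00 livers in misaligned males and 9.43, 13.8 and 12.3 CPM at 16:00 and 3.51, 3.58 and 3.61 CPM at 04:00 in control males. Wrnip1, a DNA repair ATPase, had 28.2, 26.8 and 26.6 CPM in the 16:00 livers, against 43.1, 32.8 and 45.2 CPM in the 04:00 livers in misaligned males and 43.1, 45.7 and 62.8 CPM at 16:00 and 23.6, 31 and 33.4 CPM at 04:00 in control males. All 3 were high in every control liver of 16:00, and in misaligned males Caln1 and Wrnip1 were low in all 16:00 livers with no overlap. Their differences of differences were -1.70 ± 0.29, -2.86 ± 0.49 and -1.35 ± 0.24.

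Heat shock genes were 4 of the 69 negative calls, namely Hsp90aa1, Chordc1, Stip1 and Fkbp4, all HSP90 or its helpers. Hsp90aa1 had 272, 265 and 357 CPM at 16:00 and 104, 193 and 155 CPM at 04:00 in control males, and its difference of differences was -1.72 ± 0.40 with an edgeR adjusted p of 0.04. The list median was -1.24, beside 0.01 over all genes tested. Of the clock outputs 5 of 23 passed, all negative. Chka had 129.7, 186 and 129 CPM at 16:00 and 35.8, 48.3 and 38.4 CPM at 04:00 in control males, giving -3.64 ± 0.81 with an edgeR adjusted p of 0.0308. Cyp2b10 had 16.5, 16.2 and 18.4 CPM at 16:00 and 1.14, 1.96 and 3.04 CPM at 04:00 in control males, giving -6.67 ± 1.42 with an edgeR adjusted p of 0.0253. Acot1, an acyl-CoA thioesterase with near copies beside it, was the PPAR alpha target that passed, at -3.30 ± 0.77 with an edgeR adjusted p of 0.04. Among the called genes, the size of the log2 difference between 16:00 and 04:00 had a median of 0.693 under misalignment and 1.02 in controls. A test of the difference of differences favours genes whose signs are opposite, so that feature of the called genes is not a separate result.

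**Figure D5:**
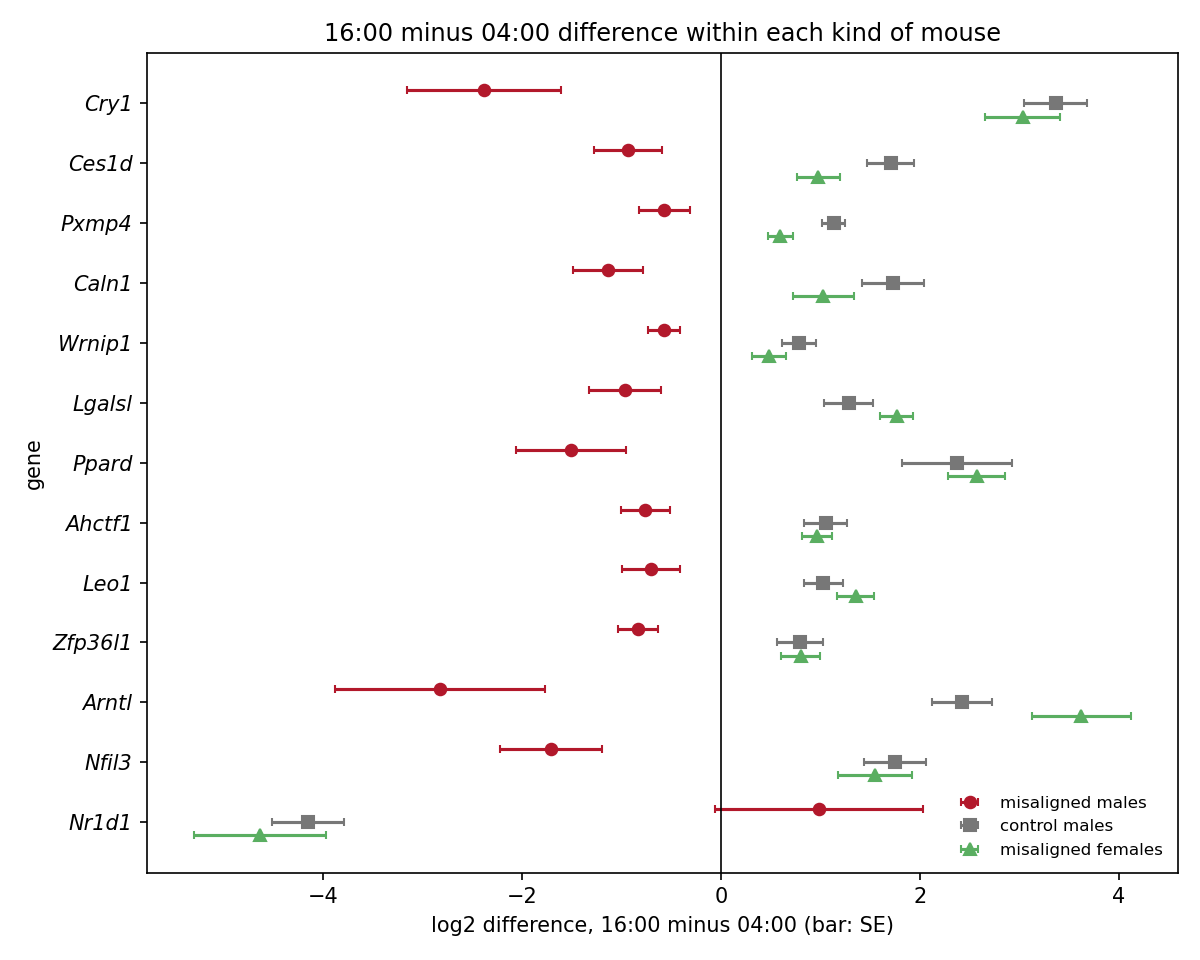
Log2 difference, 16:00 minus 04:00, with its SE in edgeR, for genes named in the tests against control males and misaligned females, in misaligned males, control males and misaligned females. Arntl and Cry1 are negative in misaligned males and positive in both other kinds of mouse, and Nr1d1 is the reverse.

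The count rested on single livers. It was 563 without misaligned 04:00 replicate 2, 8 without misaligned 04:00 replicate 1 and 7 without misaligned 04:00 replicate 3. Leaving out misaligned 16:00 livers gave 30, 31 and 105 for replicates 1, 2 and 3, control 16:00 livers 146, 15 and 29, and control 04:00 livers 21, 131 and 27. Cry1, Ces1d, Pxmp4, Caln1 and Wrnip1 passed in all of these fits, and Nfil3 missed in 1 of the 12. Most other named calls were lost in more than 6 of the 12 fits. Arntl, Acot1 and Fkbp4 missed in 8 of them, Clock, Hsp90aa1, Chordc1, Chka and Cyp2b10 in 9, Nr1d1 and Stip1 in 10, and Slc45a3, a solute carrier, in 11. Ppard and Lgalsl missed in 7, Leo1 in 6, Zfp36l1 in 4, Ahctf1 in 3 and Lonrf3 in 2. With the 12 compared libraries alone 0 genes passed, 1418 having an unadjusted p under 0.05 in edgeR.

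Misaligned females were the second comparison, under the same treatment and sharing the 6 male livers. In misaligned females Arntl and Cry1 were higher at 16:00 than at 04:00, and Nr1d1 and Dbp lower, in each case with no overlap. Of 14558 genes, 36 passed the test of the difference of differences (0.247%), 3 positive (0.0206%) and 33 negative (0.227%), including 7 of the 19 core clock genes. Arntl in misaligned females had 32.1, 44.7 and 32 CPM at 16:00 and 3.1, 4.03 and 1.71 CPM at 04:00, and misaligned male minus female was -6.42 ± 1.21 with an edgeR adjusted p of 0.0248. Cry1 in misaligned females had 57, 60.2 and 35.4 CPM at 16:00 and 3.94, 5.8 and 9.07 CPM at 04:00, giving -5.39 ± 0.90 and an edgeR adjusted p of 0.0129. Npas2 had 17.6, 16.1 and 17.3 CPM at 16:00 and 1.26, 0.97 and 0.86 CPM at 04:00, giving -7.43 ± 1.61 and an edgeR adjusted p of 0.0457. In each of these genes the 3 female livers of 16:00 all lay above the 3 of 04:00. Nr1d2 had 14.4, 15.4 and 13.6 CPM at 16:00 and 69.1, 78.4 and 76.2 CPM at 04:00, giving 3.25 ± 0.64 with an edgeR adjusted p of 0.0287, one of the 3 positive calls. Nr1d1, at 5.64 ± 1.31, did not pass (adjusted p = 0.0513 in edgeR).

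The smallest p-values outside the clock belonged to Lgalsl and Ppard. Lgalsl, a relative of the galectins, had 17.3, 17 and 17.6 CPM in the 16:00 livers, against 45.6, 16.9 and 38.8 CPM in the 04:00 livers in misaligned males and 44.9, 53.3 and 41.8 CPM at 16:00 and 14.7, 13.8 and 13.1 CPM at 04:00 in misaligned females, giving -2.71 ± 0.42 with an edgeR adjusted p of 0.0075. Ppard had 50.9, 43.6 and 46 CPM at 16:00 and 8.21, 7.97 and 7.7 CPM at 04:00 in misaligned females, giving -4.06 ± 0.66 with an edgeR adjusted p of 0.0105. In both, male 04:00 replicate 2 matched the male 16:00 livers. Ahctf1, a nucleoporin, had 20.2, 24.5 and 25.1 CPM in the 16:00 livers, against 59.2, 22.8 and 36.1 CPM in the 04:00 livers in misaligned males, and 55.7, 56.4 and 56 CPM at 16:00 and 33.2, 22.3 and 31.2 CPM at 04:00 in misaligned females. Leo1, of the PAF1 transcription complex, had 10.9, 12.8 and 9.1 CPM in the 16:00 livers, against 23.2, 10.8 and 19.5 CPM in the 04:00 livers in misaligned males, and 23.6, 23.4 and 25.5 CPM at 16:00 and 9.63, 9.42 and 9.58 CPM at 04:00 in misaligned females. Zfp36l1, which destabilises mRNAs, had 70.3, 78.8 and 82.5 CPM in the 16:00 livers, against 167, 99.1 and 147 CPM in the 04:00 livers in misaligned males, and 232, 183 and 193 CPM at 16:00 and 153, 84.9 and 115 CPM at 04:00 in misaligned females. Zfp36l1 was the one of these 3 whose male groups did not overlap. Their differences of differences were -1.70 ± 0.30, -2.03 ± 0.37 and -1.61 ± 0.29. The glycogen regulator Ppp1r3b passed here with -2.84 ± 0.61 (adjusted p = 0.0421 in edgeR), its female levels being 515, 724 and 509.7 CPM at 16:00 and 217, 169 and 217 CPM at 04:00. The median difference of differences over the heat shock list was -1.08, beside 0.01 over all genes tested. The count was 317 without male 04:00 replicate 2, 0 without male 04:00 replicate 1 (1058 at an unadjusted p under 0.05 in edgeR) and 6 without male 04:00 replicate 3. It was 8, 36 and 14 without male 16:00 replicates 1, 2 and 3, 14, 12 and 42 without female 16:00 replicates, and 24, 1 and 14 without female 04:00 replicates. Of these 12 fits, Npas2 and Chka missed in 11, Ppp1r3b in 10, Nfil3 in 9, Nr1d2 and Clock in 8, Arntl in 7 and Lonrf3 in 4. Cry1, Ppard, Ahctf1, Leo1 and Zfp36l1 missed in 2 and Lgalsl in 1.

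Intron reads, a readout of unspliced RNA from the same libraries, repeated the order of the livers in Arntl and Cry1. Arntl introns had 7, 15 and 7 counts in the 16:00 livers, against 122, 19 and 135 counts in the 04:00 livers. Cry1 introns had 3, 3 and 8 counts in the 16:00 livers, against 66, 2 and 51 counts in the 04:00 livers. The 04:00 replicate 2 was again with the 16:00 livers in both genes. Clock introns did not divide this way, with 19, 7 and 13 counts at 16:00 and 14, 19 and 27 counts at 04:00. Between 16:00 and 04:00, 0 of 10126 genes passed on introns (0%), with 376 at an unadjusted p under 0.05 in edgeR. Against control males 19 of 10776 passed (0.176%), among them Arntl at -6.36 (adjusted p = 0.0329 in edgeR) and Cry1 at -6.30 (adjusted p = 0.019 in edgeR). Chka and Zfp36l1 passed there too. Nfil3, Nr1d1, Clock, Ces1d, Pxmp4, Caln1, Wrnip1 and Hsp90aa1, called on gene counts, did not pass on introns. Their adjusted p-values ran from 0.14 to 0.739 in edgeR. Against misaligned females 28 of 10685 passed (0.262%), again with Arntl and Cry1 among them. These libraries are the same as above, so the introns are a second measure and not a second set of livers.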

How the data were processed

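Poly(A) RNA of whole liver was sequenced in pairs on a stranded library, per the labels' protocols. STAR 2.6.0c and the build GRCm38 are named in the submitters' processing notes. The deposited tables hold the authors' read counts per gene in whole numbers, sense and antisense, in a version restricted to unambiguous reads (used here) and one that adds ambiguous reads (an alternative). How reads were counted and whether totals were evened out is not given in the sources used here, and 0 columns were left without a sample.

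Genes were filtered with filterByExpr and scaled by TMM. The model was edgeR's robust quasi-likelihood fit (version 4.0.16, under R 4.3.3), with 1 mean per group. The 16:00 minus 04:00 contrast used the 18 misaligned male libraries (6 coefficients, 12 residual degrees of freedom). The differences of differences used the 36 male or the 36 misaligned libraries (12 coefficients). Tests were 2-sided and adjusted by Benjamini and Hochberg over all genes of a test, with a threshold of 0.05. CPM used TMM factors over all 72 libraries, and log2 CPM a prior count of 2. The fits were tested on simulated data, with 100 genes changed by a log2 of 1 and 100 by 2. Changed genes had a mean above 2 CPM, and each gene had the same dispersion in every group. In the real livers the core clock spread was unequal (median SD 0.277 at 16:00 and 0.866 at 04:00). The recovered shares therefore do not give the power for such genes. For 16:00 against 04:00, 56% and 92% were recovered, with 12 false calls. Against control males it was 25% and 75% with 1 false call. Against misaligned females it was 40% and 91% with 17 false calls. Sense intron counts, 876239 to 901050 per library here, were summed per gene and fitted the same way. Antisense counts of the core clock genes were 0 to 3 per library.

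Named genes were the core clock genes, the 3 members with the smallest p of each list, and the 6 called genes with the smallest p and at least 2 CPM in each difference of differences; others are said to be outside the rule or belong to a list that is described. Of the listed genes, 2 are counted with their lists and otherwise not reported here. The comparison and the 31 gene lists, with 531 of 538 genes in the table, were chosen with earlier results of these data known. Positions are those of GENCODE on GRCm38. Promoters come from RefSeq, where 16 of 19 core clock genes matched. Alternatives were RLE factors, total counts, no filter, a mean of at least 2 CPM, limma-voom 3.58.1, DESeq2 1.42.0, the version with ambiguous reads, a replicate block, all 72 libraries, the compared libraries alone and leaving out each library. Figures were drawn with matplotlib 3.10.9.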

Additional observations from a re-analysis of the deposited data

Results flagged for a closer look

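The 16:00 to 04:00 difference was itself different between misaligned males and control males in 92 genes and between misaligned males and misaligned females in 36 genes, each by a test of the difference in edgeR at an adjusted p of 0.05. Both sets rest on the same 3 misaligned male livers at 04:00, of which replicate 2 read differently from replicates 1 and 3, and on the counts without single livers given above. A bare value below is a log2 difference of differences, misaligned males minus the other mice.

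Against control males, the core clock genes reported were Arntl at -5.25, Clock at -1.12, Cry1 at -5.75, Nfil3 at -3.46 and Nr1d1 at 5.13. The others with the smallest p were Ces1d at -2.64, Pxmp4 at -1.70, Caln1 at -2.86 and Wrnip1 at -1.35. Of the chaperones and their helpers, Hsp90aa1 was at -1.72, Chordc1 at -1.43, Stip1 at -1.52 and Fkbp4 at -1.46. Of clock output, lipid and drug metabolism genes, Lonrf3 was at -4.65, Chka at -3.64, Ppard at -3.88, Leo1 at -1.73, Slc45a3 at -2.52, Cyp2b10 at -6.67 and Acot1 at -3.30. Ahctf1 was at -1.81, Lgalsl at -2.24 and Zfp36l1 at -1.63.

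Against misaligned females, the core clock genes reported were Arntl at -6.42, Clock at -1.23, Npas2 at -7.43, Cry1 at -5.39, Nr1d2 at 3.25 and Nfil3 at -3.23. Lgalsl was at -2.71, Ppard at -4.06, Ahctf1 at -1.70, Leo1 at -2.03 and Zfp36l1 at -1.61. Lonrf3 was at -4.71, Chka at -4.20 and Ppp1r3b at -2.84.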

How the results depend on the processing

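Between 16:00 and 04:00 in misaligned males, the count of called genes was 0 in edgeR and under every alternative listed in the methods except DESeq2, which called 2, and it was 0 to 0 when each of the 6 livers was left out (302 to 1265 genes at an unadjusted p under 0.05). Without 04:00 replicate 2, alternatives chosen after seeing the data called 73 genes with all other libraries in the fit, 12 with the compared libraries alone, 73 with DESeq2 and 0 with limma-voom. Against control males the 92 calls became 54 with no filter, 348 with DESeq2, 382 with all 72 libraries in the fit and 0 with the compared libraries alone, and 7 to 563 without single libraries. Scaling by total counts shifted the median of all genes by 0.26 and gave 112 calls split into 70 positive and 42 negative, beside 23 and 69. Against misaligned females the 36 calls became 71 with RLE factors, 22 with total counts, 82 at a mean of at least 2 CPM, 184 with DESeq2, 8 with limma-voom, 67 with ambiguous reads added, 182 with all 72 libraries, 0 with the compared libraries alone, and 0 to 317 without single libraries. Correlations of same-numbered deviations were -0.326, 0.195 and -0.16 in misaligned males and 0.083, -0.005 and 0.047 in misaligned females. In control males they were 0.715, 0.485 and -0.005, beside -0.714 to 0.47 between livers of different numbers. Whether same-numbered control livers shared a factor was not tested. A replicate block gave 0, 76 and 25 calls in the 3 comparisons. The sign of 4 small differences depended on the setting. Cry2 was 0.046 with total counts. Without single livers Cry2 ran from -0.30 to 0.13, Per1 from -0.022 to 0.71, Hlf from -0.18 to 0.044 and Bhlhe40 from -0.33 to 0.16. The causes were not tested. With 3 livers a group, the median SE of a log2 difference was 0.24.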
